A study of Mus musculus with 12 samples.

Results

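Unstimulated naive CD4+ T cells of the mouse that carried a Ddx55 knockout (KO) were compared with wild-type (WT) cells at 0 h, before any engagement of the T cell receptor. This comparison rests on 4 of the 12 libraries of the series, 2 KO and 2 WT, taken by their labelled genotype and time. All cells were purified naive CD4+ T cells from spleen and pLN, and the other 8 libraries are WT and KO cells, 2 of each, after 8 h and 24 h on plates with antibodies to CD3 at 5 ug/ml and to CD28 at 2.5 ug/ml. The labels give neither the Ddx55 allele, nor a Cre line, nor the age of the animals, and nothing in them states that replicates stem from different mice. A p-value here thus measures only the spread between libraries, which the fit estimates over all 12, the 8 stimulated ones included. Every library is bulk RNA, in which more cells of one kind cannot be told apart from more RNA per cell.

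Ddx55 belongs to the DEAD-box family of RNA helicases and is known for its part in assembling the large ribosomal subunit. Naive T cells circulate in a quiescent state: they are small, do not replicate their DNA, and keep the genes of the cell cycle at low levels until antigen and costimulation reach them. The comparison at 0 h asks which gene programs already differ in this resting population.

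Gene counts were 16810375 and 16891904 in the WT libraries and 17814288 and 19126498 in the KO libraries, and 15679 genes passed the filter on low counts. Levels below are CPM, counts relative to library size scaled with TMM factors, given for WT replicates 1 and 2 and then KO replicates 1 and 2, and log2 fold changes of KO over WT ± SE from edgeR's quasi-likelihood test. Genes past a Benjamini-Hochberg adjusted p of 0.05 are said to be higher or lower. CPM is not scaled by length, so levels are compared only within a gene.

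Ddx55 itself (ENSMUSG00000029389, chromosome 5, 124552864 to 124569660, plus strand, GRCm38) stood at 45.3 and 51.2 CPM in WT and at 19.5 and 18.95 CPM in KO cells. KO cells kept 39.9% of the WT level (log2 fold change -1.33 ± 0.10, adjusted p = 9.48e-06). Within the gene the difference was uneven. An ORR1D2 repeat between exons 3 and 4 of the main transcript (124555607 to 124555953) had 35 and 35 counts in WT and 2 and 3 in KO libraries, while an ORR1B1 repeat in the last exon (124569210 to 124569487) had 22 and 15 counts in WT and 14 and 13 in KO libraries. Of the 93 tested genes within 3 Mb of Ddx55, 4.3% passed the threshold, 3 higher (Aldh2, Kntc1 and Scarb1) and 1 lower (Clip1).

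Genes that define the sorted cells were present in all 4 libraries and did not pass the threshold. Cd4, the coreceptor, stood at 1001 and 1049 CPM in WT and 1047 and 1044 CPM in KO cells. Cd3e, a chain of the T cell receptor complex, stood at 327, 322, 313 and 299 CPM. Tcf7, a transcription factor of naive cells, was listed at 2170 and 2057 CPM in WT and 1828 and 1613 CPM in KO cells, without overlap but short of the threshold (adjusted p = 0.287). The T cell receptor variable genes did not pass either: 0 of 64 Trav and 0 of 23 Trbv genes tested.

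Of the 15679 genes tested, 893 passed the threshold (5.7%), 726 of them higher in KO cells (4.63%) and 167 lower (1.07%). Every count of list members below is to be read beside these shares. The 2 directions differed in size. The higher genes had a median change of 1.86 on the log2 scale, and 549 of them changed more than 2-fold, at a median level of only 4.64 CPM. Lower genes had a median change of 0.56 in size at a median level of 36.2 CPM, and 25 of them changed more than 2-fold. KO and WT libraries did not overlap for 43.1% of all genes tested, so that non-overlap alone is common here. The count of higher genes was 464 without WT replicate 1 and 303 without WT replicate 2; the count of lower genes was 58 without WT replicate 1, 45 without WT replicate 2, 99 without KO replicate 1 and 391 without KO replicate 2.

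**Figure D1:**
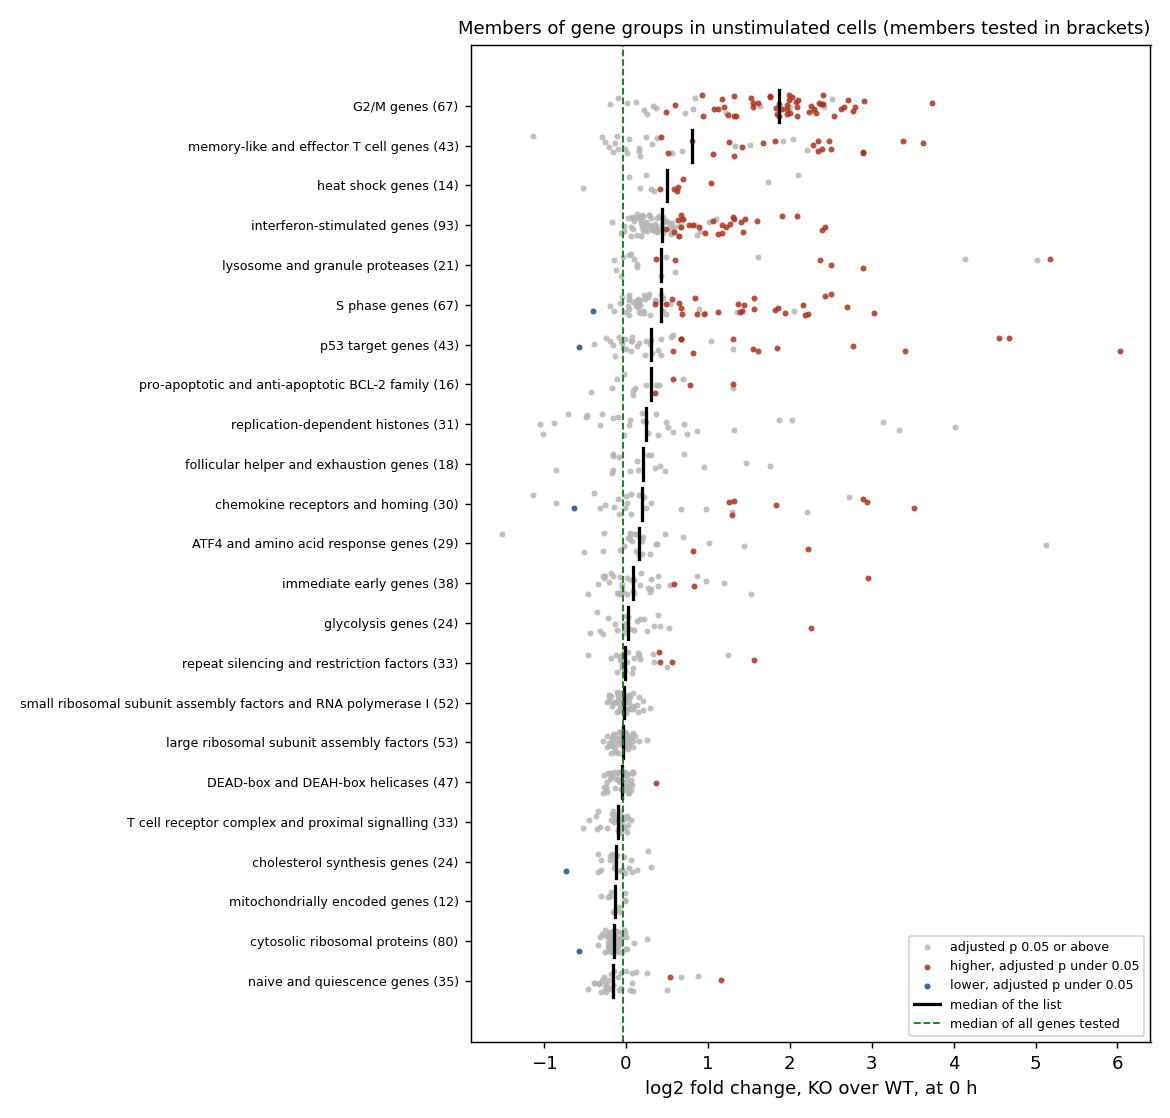
Log2 fold change of KO over WT at 0 h (x axis) for every tested member of 23 gene groups (rows, number tested in brackets). Each point is a gene, coloured by whether it passed adjusted p 0.05, black bars are group medians and the dashed line is the median of all genes tested (-0.03). The G2/M group lies farthest to the right, with a median of 1.87, while ribosome assembly, ribosomal protein and T cell receptor groups sit at the line or just left of it.

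The cell cycle genes formed the group with the most calls. Of 67 G2/M genes, which build the spindle, condense chromosomes and drive entry into mitosis, 50 were higher and 0 lower, with a median log2 fold change of 1.87 beside -0.03 over all genes tested. Of 67 S phase genes, which license origins and supply DNA precursors, 26 were higher and 1 was lower, with a median of 0.42. The levels stayed small: the summed CPM of the G2/M genes was 534 and 432 in WT and 981 and 885 in KO cells, beside 5607 and 4751 in WT cells at 24 h of stimulation. The number of G2/M genes called higher was 22 without WT replicate 2 and 31 without KO replicate 1. Progenitor and granule genes of neutrophils moved the same way, with summed levels of 92.7 and 40.6 CPM in WT and 667 and 631 CPM in KO cells, and their part in the cell cycle result was not tested.

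Promoters of members that moved together are shown first, since both groups are known for shared promoter elements. The CHR element binds the complexes that switch G2/M genes off in resting cells, and E2F sites do the same work for S phase genes. The sequences are the 150 bases before the transcription start, from RefSeq (GRCm38.p6), 5′ to 3′ on the gene's strand, with each match on either strand in capitals. For the CHR element the words searched were TTTGAA and TTCGAA:
Ckap2l, chr2:129297213-129297362, minus strand: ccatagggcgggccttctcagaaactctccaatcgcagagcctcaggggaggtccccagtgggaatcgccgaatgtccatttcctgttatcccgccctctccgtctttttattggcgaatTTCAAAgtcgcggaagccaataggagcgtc
Ccnf, chr17:24251410-24251559, minus strand: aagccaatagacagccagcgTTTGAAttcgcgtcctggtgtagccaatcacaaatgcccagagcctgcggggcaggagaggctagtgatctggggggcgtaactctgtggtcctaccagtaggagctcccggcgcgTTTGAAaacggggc
Ckap2, chr8:22185820-22185969, minus strand: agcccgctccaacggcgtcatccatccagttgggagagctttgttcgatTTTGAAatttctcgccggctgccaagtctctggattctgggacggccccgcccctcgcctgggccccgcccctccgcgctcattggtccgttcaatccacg

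For E2F sites the words searched were TTTCCCGC, TTTGGCGC, TTTCGCGC and TTTGCCGC, and 3 S phase genes that were higher in KO cells hold 1 each:
Cdc6, chr11:98908001-98908150, plus strand: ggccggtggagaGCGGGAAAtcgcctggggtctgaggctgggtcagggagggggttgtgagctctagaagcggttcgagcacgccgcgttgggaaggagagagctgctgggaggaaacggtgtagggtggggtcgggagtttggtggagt
Dtl, chr1:191575545-191575694, minus strand: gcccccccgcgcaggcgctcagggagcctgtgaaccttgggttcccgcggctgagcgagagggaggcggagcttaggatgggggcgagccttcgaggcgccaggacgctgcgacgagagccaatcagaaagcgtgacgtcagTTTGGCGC
Mcm5, chr8:75109359-75109508, plus strand: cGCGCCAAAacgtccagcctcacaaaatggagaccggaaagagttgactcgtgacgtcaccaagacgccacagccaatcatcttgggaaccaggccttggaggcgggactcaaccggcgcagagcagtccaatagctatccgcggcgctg

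In windows of 300 bases, 250 before and 50 after the start, 76.8% of the 56 windows of G2/M genes held a CHR word, beside 14.3% of the 13321 windows of all tested genes and 19.2% of all 32851 windows in the table. E2F words were in 37.1% of the 62 windows of S phase genes, beside 3.85% of the windows of all tested genes and 2.27% of all windows. These are matches of letters over whole lists, called and uncalled members alike, and show no binding.

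Among the G2/M genes, Bub1b, a kinase of the spindle checkpoint, stood at 4.02 and 2.71 CPM in WT and 14.98 and 11.4 CPM in KO cells (log2 fold change 1.97 ± 0.21, adjusted p = 0.000137). Ckap2l, a spindle protein whose promoter is printed above, stood at 1.004 and 0.722 CPM in WT and 6.77 and 5.36 CPM in KO cells (2.80 ± 0.32, adjusted p = 0.000225). Aurkb, the mitotic kinase Aurora B, stood at 2.01 and 1.14 CPM in WT and 9.20 and 7.62 CPM in KO cells (2.41 ± 0.28). In each of these genes both KO libraries lay clear above both WT libraries. Foxm1, a transcription factor of G2/M genes, was 2.49-fold and Ccnf, cyclin F, 2.94-fold higher by mean CPM. Mki67, the proliferation marker Ki-67, stood at 20.5 and 11.6 CPM in WT and 62.9 and 73.6 CPM in KO cells (2.09 ± 0.33, adjusted p = 0.0116), a call lost without KO replicate 1 or 2 (adjusted p = 0.0559 and 0.0567). Ncaph, a condensin subunit, stood at 4.37 and 3.73 CPM in WT and 9.97 and 9.88 CPM in KO cells.

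The S phase list includes factors that load or fire replication origins. Mcm10, which helps start the replicative helicase, stood at 1.12 and 0.662 CPM in WT and 5.56 and 6.12 CPM in KO cells (2.699 ± 0.21, adjusted p = 9.48e-06). Cdc6, which loads the helicase on origins, stood at 1.77 and 1.26 CPM in WT and 9.25 and 7.17 CPM in KO cells (2.43 ± 0.23). Mcm5, a helicase subunit, stood at 48.1 and 44.3 CPM in WT and 79.0 and 69.6 CPM in KO cells (0.69 ± 0.09, adjusted p = 0.000632). Tyms, thymidylate synthase, stood at 4.31 and 5.00 CPM in WT and 12.8 and 11.2 CPM in KO cells. Uhrf1, which guides maintenance DNA methylation, stood at 9.86 and 7.40 CPM in WT and 27.4 and 23.9 CPM in KO cells (1.57 ± 0.13, adjusted p = 1.8e-05). Timeless, a fork protection factor, was the member that went down, from 70.2 and 75.6 CPM in WT to 54.6 and 56.1 CPM in KO cells (-0.40 ± 0.09, adjusted p = 0.0192), a call that held only without KO replicate 2. Cdk6, the G1 kinase that pairs with D-type cyclins, stood at 27.2 and 26.4 CPM in WT and 62.1 and 89.0 CPM in KO cells (1.496 ± 0.15). The 31 tested replication-dependent histone genes gave 0 calls in either direction (median 0.25). They are too few to tell apart from the 4.63% over all genes, and their levels were low. All 50 listed histones summed to 56.9 and 59.5 CPM in WT and 63.0 and 68.0 CPM in KO cells.

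**Figure D2:**
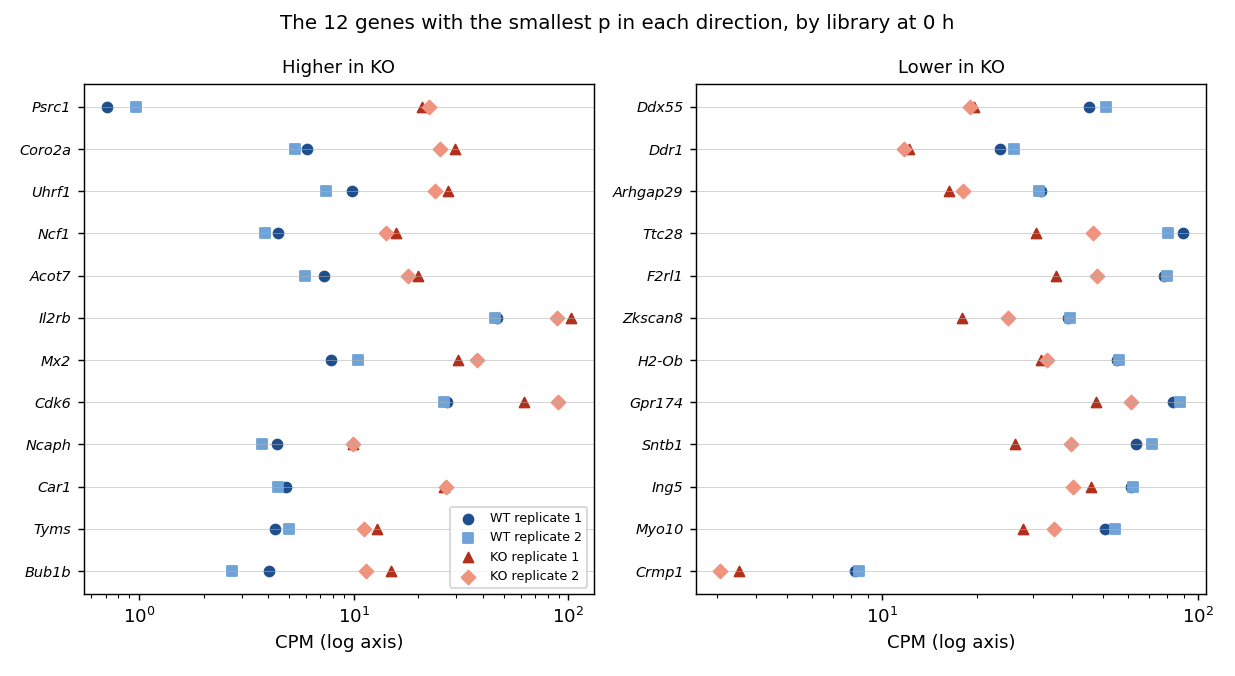
CPM (log axis) in each of the 4 libraries at 0 h for the 12 genes with the smallest p in each direction. WT libraries are blue and KO libraries red; each point is 1 library. Psrc1 shows the widest gap, from below 1 CPM in both WT libraries to 20.8 and 22.3 CPM in KO libraries, and Ddx55 leads the lower genes.

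Part of the p53 program was already higher at rest. The transcription factor p53 acts on stress and ribosome assembly defects by inducing cell cycle arrest and death genes. Of 43 tested p53 target genes 13 were higher and 1 lower, beside 4.63% and 1.07% over all genes tested. Their median log2 fold change was 0.30. Psrc1, a spindle protein on the list, had the smallest p of all genes higher in KO cells, at 0.709 and 0.963 CPM in WT and 20.8 and 22.3 CPM in KO cells (4.68 ± 0.23, adjusted p = 8.75e-08). Phlda3, an inhibitor of AKT signalling, stood at 0.295 and 0.843 CPM in WT and 13.5 and 13.4 CPM in KO cells (4.55 ± 0.42). Cdkn1a, the cell cycle inhibitor p21, stood at 1.71 and 0.241 CPM in WT and 8.87 and 12.1 CPM in KO cells (3.41 ± 0.54, adjusted p = 0.011), with an adjusted p of 0.0527 without KO replicate 2. Each of these genes went from near absence in both WT libraries to a clear level in both KO libraries. Dyrk3, a kinase, and Ckap2, a spindle protein that is also on the G2/M list, had log2 fold changes of 2.77 ± 0.32 and 1.84 ± 0.25. Trp53, which encodes p53, stood at 194, 215, 190 and 197 CPM (adjusted p = 0.711), and Mdm2, its ubiquitin ligase and target, at 116, 108, 112 and 123 CPM (adjusted p = 0.788). Rrm2b, a ribonucleotide reductase subunit, was the lower member, at 36.3 and 40.6 CPM in WT and 24.3 and 27.5 CPM in KO cells, a call lost without WT replicate 2 (adjusted p = 0.168) or KO replicate 1 (0.118).

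The BCL-2 family sets the threshold for mitochondrial cell death. It had 4 of 16 tested members higher and 0 lower, beside 4.63% and 1.07% over all genes tested. Bbc3, the pro-death protein PUMA, stood at 30.01 and 35.1 CPM in WT and 89.6 and 71.5 CPM in KO cells (1.31 ± 0.19, adjusted p = 0.00224). Bax, the pore former, stood at 48.5 and 44.2 CPM in WT and 74.0 and 64.0 CPM in KO cells (0.57 ± 0.12). The pro-survival members Bcl2, at 179 and 229 CPM in WT and 321 and 382 CPM in KO cells (0.78 ± 0.17), and Mcl1, at 608 and 578 CPM in WT and 799 and 718 CPM in KO cells (0.36 ± 0.10), were higher as well. Of these calls Bbc3 held in 4 of the 4 fits that left out a library, Bax in 2, and Bcl2 and Mcl1 in 1 each. The count was 2 without WT replicate 2 and 1 without KO replicate 1.

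Interferon-stimulated genes, which cells switch on when type I interferon binds its receptor, had 27 of 93 tested members higher and 0 lower, and 89 of 93 log2 fold changes were above 0 (median 0.45). Ifi44 stood at 3.84 and 5.00 CPM in WT and 16.3 and 21.2 CPM in KO cells (2.08 ± 0.25, adjusted p = 0.000297). Oas2, a sensor of double-stranded RNA that makes oligoadenylates, stood at 83.5 and 112 CPM in WT and 224 and 260 CPM in KO cells (1.31 ± 0.17). Usp18, which removes ISG15 from proteins and dampens the receptor, stood at 37.4 and 53.8 CPM in WT and 90.6 and 115 CPM in KO cells (1.17 ± 0.15). Mx2, an antiviral GTPase, stood at 7.80 and 10.4 CPM in WT and 30.6 and 37.4 CPM in KO cells (1.90 ± 0.19, adjusted p = 8.8e-05). The KO libraries lay above both WT libraries in all 4 genes, and WT replicate 1 was the lower of the WT libraries in each. Summed over the list the levels were 12185 and 15228 CPM in WT and 16101 and 18315 CPM in KO cells. With that spread the count was 11 without WT replicate 1 and 14 without KO replicate 2.

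The interferon-stimulated response element is shown for 3 higher members of the list. Its core was searched on both strands as GAAA, any 2 bases and GAAA again, and overlapping copies run together in the capitals:
Bst2, chr8:71537473-71537622, minus strand: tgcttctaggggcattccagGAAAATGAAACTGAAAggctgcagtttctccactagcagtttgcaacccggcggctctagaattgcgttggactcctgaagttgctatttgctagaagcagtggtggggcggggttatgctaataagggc
Isg15, chr4:156200819-156200968, minus strand: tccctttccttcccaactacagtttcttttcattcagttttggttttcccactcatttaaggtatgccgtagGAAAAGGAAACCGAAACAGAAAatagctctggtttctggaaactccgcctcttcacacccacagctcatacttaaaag
Phf11b, chr14:59341331-59341480, minus strand: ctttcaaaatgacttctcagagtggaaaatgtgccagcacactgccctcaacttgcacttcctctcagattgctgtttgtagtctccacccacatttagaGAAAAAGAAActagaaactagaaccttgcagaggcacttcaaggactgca

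The core was present in 44.4% of the 90 windows of interferon-stimulated genes, beside 3.19% of the windows of all tested genes and 3.44% of all windows. Bst2, tetherin, which holds budding virions at the cell surface, stood at 45.3 and 61.5 CPM in WT and 102 and 95.5 CPM in KO cells (0.89 ± 0.13, adjusted p = 0.00101). Isg15, the ubiquitin-like modifier, stood at 18.8 and 33.3 CPM in WT and 65.7 and 75.0 CPM in KO cells (1.43 ± 0.22). Phf11b stood at 37.4 and 49.6 CPM in WT and 65.0 and 73.9 CPM in KO cells (0.67 ± 0.13), and its call was lost without WT replicate 1 (adjusted p = 0.0792). Phf11b has close relatives beside it, and the treatment of reads with several matches is not stated.

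Heat shock genes, which encode chaperones, had 6 of 14 tested members higher and 0 lower (median 0.50), beside 4.63% higher over all genes tested. Their summed levels were 3957 and 3910 CPM in WT and 5542 and 5574 CPM in KO cells. Hspa8, the constitutive HSP70, stood at 990 and 1063 CPM in WT and 1703 and 1632 CPM in KO cells (0.70 ± 0.10, adjusted p = 0.000817). Hsph1, its exchange factor, stood at 61.4 and 69.2 CPM in WT and 118 and 151 CPM in KO cells (1.04 ± 0.12). The cochaperones Dnajb1 and Dnaja1 had log2 fold changes of 0.62 ± 0.09 and 0.64 ± 0.10. Calr, calreticulin of the endoplasmic reticulum, stood at 390 and 355 CPM in WT and 548 and 516 CPM in KO cells (0.51 ± 0.10, adjusted p = 0.0895 without WT replicate 2).

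Rbm3, a cold-induced RNA binding protein, stood at 329 and 297 CPM in WT and 245 and 244 CPM in KO cells (-0.36 ± 0.10, adjusted p = 0.0423), a call lost whichever of the 4 libraries was left out. Cirbp, another such protein, which was chosen after its values were seen, stood at 179 and 161 CPM in WT and 126 and 88.3 CPM in KO cells (-0.67 ± 0.14, adjusted p = 0.0137, and 0.0959 without WT replicate 1).

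Immediate early genes, which respond within minutes to receptor signals or to cell handling, had 3 of 38 members higher (7.89%, near the 4.63% over all genes). The WT libraries lay at the 2 ends of the range in them, replicate 1 highest and replicate 2 lowest. Fosb stood at 792 and 118 CPM in WT and 458 and 292 CPM in KO cells. The summed level of the list was 12559 and 5884 CPM in WT and 11380 and 8582 CPM in KO cells. A fit without WT replicate 1 thus sets the KO libraries against the lowest library alone. Without WT replicate 1, 15 members were higher. Ier3, a stress-induced early gene, stood at 0.945 and 0.662 CPM in WT and 6.66 and 5.87 CPM in KO cells (2.95 ± 0.48). Socs3, a feedback inhibitor of cytokine signalling, stood at 242 and 223 CPM in WT and 346 and 352 CPM in KO cells (0.58 ± 0.10, adjusted p = 0.0517 without WT replicate 2), and Dusp2, a phosphatase that switches off MAP kinases, at 227 and 259 CPM in WT and 477 and 385 CPM in KO cells (0.83 ± 0.12).

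Of 35 naive and quiescence genes 2 were higher (5.71%, near the 4.63% over all genes) and 0 lower, with a median of -0.15. Igfbp4, a binding protein for insulin-like growth factors, had the largest rise in CPM among the genes the naming rule admits, from 999 and 1003 CPM in WT to 2445 and 2031 CPM in KO cells (1.16 ± 0.14, adjusted p = 0.000344). Treml2 stood at 204 and 212 CPM in WT and 290 and 314 CPM in KO cells (0.54 ± 0.13), and passed only without KO replicate 1 among the fits that left out a library. Zfp36l2, an RNA binding protein that destabilises AU-rich messages, stood at 947 and 895 CPM in WT and 1765 and 1379 CPM in KO cells (0.77 ± 0.16), and this call was lost without either WT library or without KO replicate 1.

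Genes of memory-like and effector T cells had 19 of 43 tested members higher and 0 lower (median 0.80). Il2rb, the shared beta chain of the IL-2 and IL-15 receptors, stood at 46.5 and 45.3 CPM in WT and 102 and 88.9 CPM in KO cells (1.06 ± 0.11, adjusted p = 8.8e-05). Tnfsf8, the ligand of CD30, stood at 66.2 and 68.4 CPM in WT and 110 and 125 CPM in KO cells (0.80 ± 0.11). Nkg7, a granule protein of cytotoxic cells, stood at 7.44 and 7.22 CPM in WT and 51.9 and 30.2 CPM in KO cells (2.48 ± 0.30). Nkg7 was higher in KO replicate 1 than in KO replicate 2, while Il2rb and Tnfsf8 were close in both. The count was 11 without WT replicate 1, 6 without WT replicate 2 and 9 without KO replicate 1.

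Chemokine receptor and homing genes had 7 of 30 members higher and 1 lower, beside 4.63% and 1.07% over all genes tested. Cx3cr1, the fractalkine receptor, stood at 1.36 and 1.14 CPM in WT and 12.4 and 7.02 CPM in KO cells (2.95 ± 0.35). Ccr2, a receptor of inflammatory chemokines, stood at 2.24 and 1.505 CPM in WT and 19.2 and 8.82 CPM in KO cells (2.89 ± 0.47). Gpr183, an oxysterol receptor that positions cells in lymphoid tissue, was the lower member, at 75.1 and 84.6 CPM in WT and 51.8 and 51.5 CPM in KO cells (-0.63 ± 0.12, adjusted p = 0.0713 without WT replicate 2). Ccr2 and Cx3cr1 were again highest in KO replicate 1. The count of higher members was 3 without WT replicate 1, 1 without WT replicate 2 and 4 without KO replicate 1. Lysosome and granule protease genes had 6 of 21 members higher, a count of 1 without either WT library or without KO replicate 1.

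Marker genes of lymphocytes other than conventional CD4+ T cells moved with these groups. Of 24 CD8 T and NK cell genes 11 were higher and 1 lower, with summed levels of 211 and 203 CPM in WT and 427 and 280 CPM in KO cells. Klrk1, the activating receptor NKG2D, stood at 4.13 and 2.29 CPM in WT and 21.3 and 11.7 CPM in KO cells, and Ncr1, a receptor of NK cells, at 1.83 and 0.843 CPM in WT and 12.1 and 4.71 CPM in KO cells. Cd8a, at 1.004, 0.963, 2.42 and 1.65 CPM, and Cd8b1, at 14.6, 17.2, 21.4 and 17.05 CPM, did not pass. Of 16 gamma delta and innate-like T cell genes 7 were higher, with summed levels of 47.1 and 40.6 CPM in WT and 141 and 114 CPM in KO cells; 3 passed without WT replicate 2. Trdc, the constant region of the delta chain, stood at 14.8 and 13.7 CPM in WT and 43.0 and 34.2 CPM in KO cells (1.44 ± 0.18), and the gamma chain constant genes Tcrg-C1, Tcrg-C2 and Tcrg-C4, close copies of each other, had log2 fold changes of 2.29 ± 0.42, 1.99 ± 0.24 and 2.17 ± 0.31. The part of such cells in the memory-like, effector and homing results was not tested. The count of CD8 T and NK cell genes was 5 without WT replicate 1, 3 without WT replicate 2 and 4 without KO replicate 1.

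**Figure D3:**
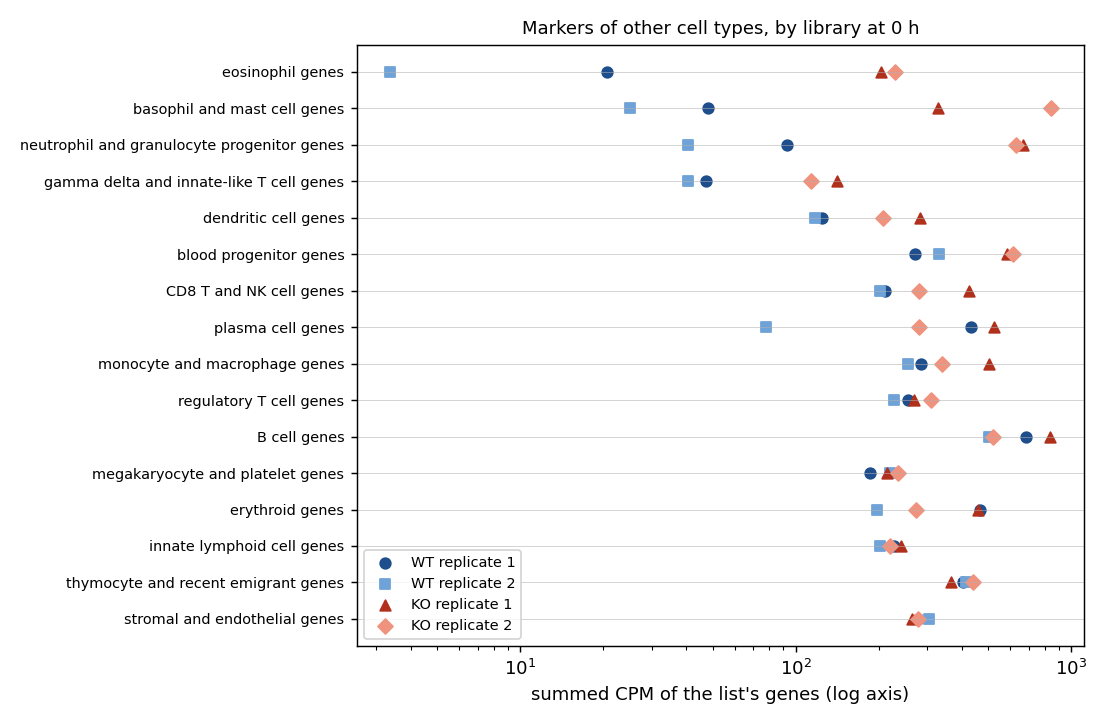
Summed CPM (log axis) of 16 lists of marker genes of other cell types in each of the 4 libraries at 0 h, WT in blue and KO in red. Eosinophil, basophil and neutrophil lists show KO libraries far to the right of both WT libraries (204 and 229 CPM against 20.6 and 3.37 CPM for eosinophil genes), while innate lymphoid and stromal lists overlap.

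Among the genes that passed the filter on low counts, the largest median folds belonged to genes of granulocytes and their bone marrow progenitors. Of 25 neutrophil and granulocyte progenitor genes 16 were higher and 0 lower, with a median log2 fold change of 3.76. Mpo, myeloperoxidase of early granules, stood at 30.8 and 6.26 CPM in WT and 236 and 257 CPM in KO cells, and Elane, neutrophil elastase, at 7.74 and 1.14 CPM in WT and 71.3 and 49.6 CPM in KO cells. Neither passed the threshold (adjusted p = 0.0726 and 0.0696), and the WT libraries differed several-fold from each other. S100a8, a calprotectin subunit, stood at 0.709 and 0.602 CPM in WT and 11.01 and 13.7 CPM in KO cells (4.22 ± 0.47, adjusted p = 0.000242). Ly6g, a surface marker of mature neutrophils, had 1 and 0 counts in WT and 0 and 0 in KO libraries. S100a8, which mature neutrophils express, was thus higher while Ly6g was nearly absent. Log2 fold changes were above 0 for all 25 tested of the 32 listed genes, but the filter on low counts bears on this sign. A gene almost without reads in WT at 0 h, such as Ltf (0 and 0.0602 CPM), enters the test only through counts in other libraries. No conclusion is drawn from the shared sign. Without WT replicate 2, 8 of the 25 passed.

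Eosinophil genes were higher in 6 of 8 tested members (median 4.26). The filter on low counts bears on this median too, and on those of the basophil and blood progenitor lists below. Members almost without reads in WT at 0 h, such as Ear2 (0.118 and 0 CPM), enter the test only through other libraries. No conclusion is drawn from the size of these medians. Prg2, the major basic protein, stood at 14.3 and 2.23 CPM in WT and 136 and 144 CPM in KO cells (adjusted p = 0.0523), and Siglecf, a surface lectin of eosinophils, at 0.354 and 0.181 CPM in WT and 3.19 and 5.06 CPM in KO cells (3.91 ± 0.68, adjusted p = 0.00321, and 0.0547 without WT replicate 2). Basophil and mast cell genes had 4 of 15 members higher (median 3.75), 12 by DESeq2, with summed levels of 47.9 and 25.0 CPM in WT and 329 and 841 CPM in KO cells. Mcpt8, the basophil protease, stood at 6.50 and 1.87 CPM in WT and 66.6 and 205 CPM in KO cells (adjusted p = 0.0775). KO replicate 2 was the higher library for basophil genes, whereas the NK and chemokine receptor genes were highest in KO replicate 1. The basophil count was 2 without KO replicate 1 and 1 without either WT library.

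Blood progenitor genes were higher in 12 of 23 tested members (median 2.74), 7 without either WT library. Kit, the stem cell factor receptor, stood at 4.78 and 5.12 CPM in WT and 15.6 and 21.3 CPM in KO cells (1.90 ± 0.27, adjusted p = 0.000719). Cd34 stood at 1.004 and 0.301 CPM in WT and 8.98 and 9.88 CPM in KO cells (3.83 ± 0.44). Erythroid genes were higher in 6 of 17, among them Car1, carbonic anhydrase 1, at 4.84 and 4.45 CPM in WT and 26.4 and 26.8 CPM in KO cells (2.51 ± 0.27), and Klf1, a transcription factor of red cell precursors, at 1.54, 1.505, 10.1 and 6.22 CPM. Hba-a1, which red cells hold in large amounts, did not follow them, at 101 and 30.8 CPM in WT and 63.3 and 32.1 CPM in KO cells. The erythroid count was 2 without WT replicate 2 or without KO replicate 1. Ncf1, a subunit of the phagocyte oxidase and one of the genes with the smallest p, stood at 4.43 and 3.85 CPM in WT and 15.7 and 14.1 CPM in KO cells (1.85 ± 0.16), and Coro2a, an actin-binding coronin, at 6.08 and 5.30 CPM in WT and 29.7 and 25.1 CPM in KO cells (2.27 ± 0.16).

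Monocyte and macrophage genes were higher in 7 of 22 (31.8%, median 1.21, and 3 without WT replicate 2), with Csf1r among them and Adgre1 and Cd68 not. Dendritic cell genes were higher in 3 of 17 (median 1.45, and 1 without WT replicate 2), regulatory T cell genes in 4 of 15 (2 without WT replicate 1 or without KO replicate 2, 1 without WT replicate 2), innate lymphoid cell genes in 3 of 10, B cell genes in 2 of 13, and platelet, thymocyte and stromal genes in 1 of 6, 1 of 12 and 1 of 14. Plasma cell genes gave 0 calls in 13. The B cell, platelet, thymocyte, stromal and plasma cell counts are too small to tell apart from the 4.63% over all genes. Lists share members, so their counts are not independent. Of the monocyte genes, Cx3cr1 and Ccr2 are also homing genes, Spi1 a progenitor gene and Tyrobp a CD8 T and NK gene. Kit counts in the basophil, progenitor and innate lymphoid lists, Nkg7 in the effector and neutrophil lists, and Bst2 in the dendritic and interferon lists. Foxp3, which defines regulatory T cells, stood at 4.96, 5.42, 3.69 and 4.31 CPM (adjusted p = 0.385), and Ptcra of thymocytes had 0 counts in all 4 libraries.

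Groups close to the known work of Ddx55 had 0 or 1 call each at 0 h, where 5.7% of all genes passed. Large ribosomal subunit assembly factors gave 0 calls in 53 genes (median -0.04), and factors of the small subunit and RNA polymerase I gave 0 in 52 (median -0.03). Among 80 cytosolic ribosomal proteins 1 was lower, the paralog Rpl22l1, at 95.1 and 81.7 CPM in WT and 66.2 and 52.3 CPM in KO cells (-0.58 ± 0.15), a call that held only without KO replicate 1. The ribosomal proteins had a median of -0.15, and 77 of 80 log2 fold changes were below 0, beside 8700 of 15679 over all genes tested. Their summed level was 120190 and 125470 CPM in WT and 121020 and 97623 CPM in KO cells. KO replicate 1 thus lay between the WT libraries. Among 47 related helicases of the DEAD-box and DEAH-box families, Dhx40 was higher, at 60.2, 60.6, 79.1 and 77.3 CPM (0.37 ± 0.10), a call lost whichever library was left out.

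Counts in signalling and metabolic groups lay near or below that share, and most of these groups are too small to tell apart from it. The T cell receptor complex and its proximal kinases gave 0 calls in 33 genes (median -0.09), follicular helper and exhaustion genes 0 in 18, mitochondrially encoded genes 0 in 12 and sex-linked genes 0 in 5. Hk2, hexokinase 2, was the higher member of 24 glycolysis genes, at 1.36 and 1.20 CPM in WT and 6.61 and 5.72 CPM in KO cells (2.26 ± 0.24). Hsd17b7 was the lower member of 24 cholesterol synthesis genes (-0.73 ± 0.19), and Asns and Sesn2 were the higher members of 29 ATF4 and amino acid response genes (2.22 ± 0.53 and 0.82 ± 0.21). Those 3 calls were lost in most or all fits that left out a library. Hsd17b7 passed only without WT replicate 1, Asns only without KO replicate 2, and Sesn2 in no such fit.

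Of the 167 lower genes, 96.4% were on none of the 40 lists, beside 94.3% of the genes that were not called. Next to Ddx55 the smallest p belonged to Ddr1, a collagen receptor kinase, at 23.7 and 26.2 CPM in WT and 12.2 and 11.7 CPM in KO cells (-1.06 ± 0.12, adjusted p = 0.000242). Ttc28 stood at 89.7 and 80.5 CPM in WT and 30.7 and 46.6 CPM in KO cells (-1.14 ± 0.18), and Sntb1, a syntrophin, at 63.4 and 71.5 CPM in WT and 26.4 and 39.7 CPM in KO cells (-1.03 ± 0.17). F2rl1, a protease-activated receptor, stood at 78.0 and 79.8 CPM in WT and 35.5 and 47.9 CPM in KO cells (-0.92 ± 0.16). KO replicate 1 was the lower KO library for each of these but Ddr1. Arhgap29, a GTPase-activating protein, Zkscan8, a zinc finger protein, Myo10, an unconventional myosin, and Crmp1 had log2 fold changes of -0.88 ± 0.14, -0.86 ± 0.15, -0.74 ± 0.14 and -1.34 ± 0.25.

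Several lower genes are receptors or regulators of lymphocytes. H2-Ob, a chaperone of MHC class II loading, stood at 55.2 and 56.3 CPM in WT and 31.8 and 33.2 CPM in KO cells (-0.78 ± 0.14). Gpr174, a receptor for lysophosphatidylserine, stood at 83.5 and 87.5 CPM in WT and 47.6 and 61.5 CPM in KO cells (-0.65 ± 0.11). Il6st, the gp130 chain of the IL-6 receptor, stood at 467 and 417 CPM in WT and 308 and 327 CPM in KO cells (-0.48 ± 0.12). Vipr1, the receptor of vasoactive intestinal peptide, stood at 339 and 317 CPM in WT and 253 and 233 CPM in KO cells (-0.43 ± 0.10). All 4 genes were lower in both KO libraries, by less than 2-fold. Fam78a, Pdk1, Ugcg, Cbx7 and Tcf20, the other lower genes with the largest difference in CPM, had log2 fold changes from -0.48 to -0.38, and Ing5, of a histone acetyltransferase complex, one of -0.52 ± 0.10. Il6st, Vipr1, Pdk1, Ugcg, Cbx7 and Tcf20 kept the call in 1 of the 4 fits that left out a library.

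Repeats were counted in a separate table, with 37251 loci and 1180 subfamilies tested. Retroviral elements and L1 copies are normally held silent by DNA methylation and histone marks. Genes that silence or restrict them had 4 of 33 members higher (12.1%, beside 4.63% over all genes). They were Uhrf1, Apobec3, Daxx and Hells, the last at 9.45 and 7.04 CPM in WT and 11.3 and 12.99 CPM in KO cells (0.56 ± 0.14). That count was 2 without either WT library or without KO replicate 2. Repeat counts per 1000 gene counts were 103 and 97.3 in WT and 84.2 and 97.9 in KO cells, with overlap. An exact two-sided permutation test of this value gave p = 0.667, but the smallest p that 2 against 2 allows is 0.333, so no difference could have passed. Repeats of the LTR class stood at 39.1 and 36.8 in WT and 30.4 and 34.8 in KO cells, and intergenic repeats at 22.8 and 20.3 in WT and 16.3 and 17.05 in KO cells, both without overlap. Non-overlap alone is common with 2 against 2, and 43.1% of the genes tested show it. Both values include the abundant intergenic MMVL30 copies given below, and neither was computed without them. Of the subfamilies 0.593% passed, 6 higher and 1 lower, and 63 had an unadjusted p under 0.05. Of the loci 0.258% passed, 84 higher and 12 lower. Many followed their host gene: of 44 higher loci in exons, 38 lay in genes that were themselves higher.

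**Figure D4:**
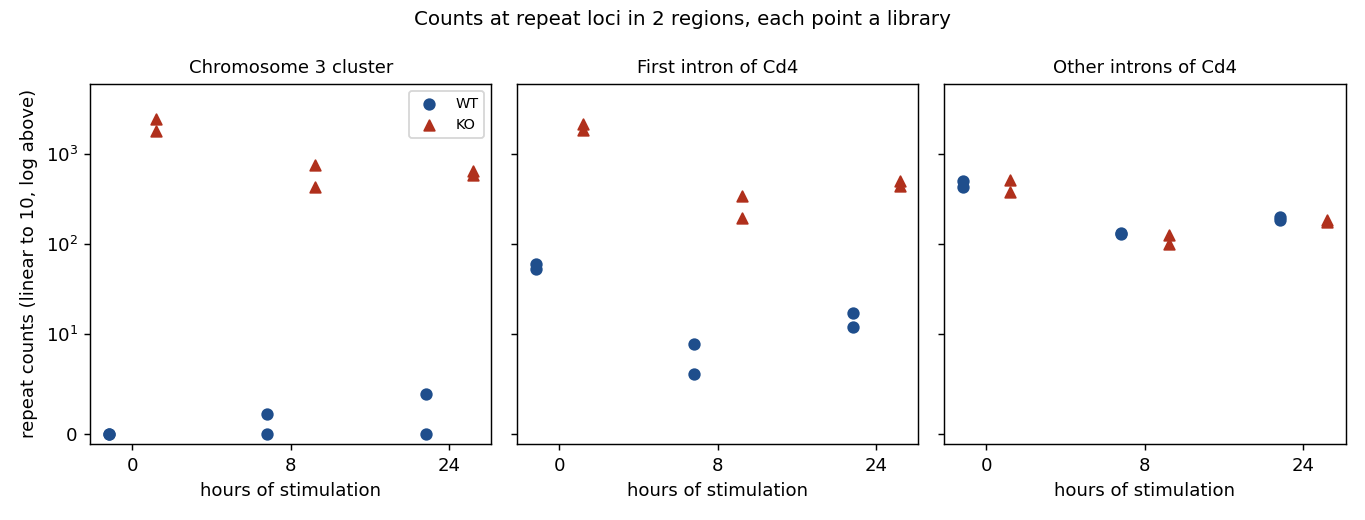
Counts at repeat loci in 3 regions (y axis, linear to 10 and logarithmic above) by hours of stimulation, WT as blue circles and KO as red triangles, 1 point per library. The chromosome 3 region and the first intron of Cd4 are high in all 6 KO libraries and highest at 0 h (1784 and 2442, and 1833 and 2142 counts), while the other introns of Cd4 overlap between genotypes at 0 h.

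A pair of dense clusters held 23 of the 84 higher loci. The first lies on chromosome 3 (60767961 to 60783523, mm10), and its called loci are intergenic. Its repeat loci had 0 and 0 counts in WT and 1784 and 2442 counts in KO libraries, 110 ± 17.1 CPM (SD, n = 2) and at least 617-fold higher than a floor of 3 counts per WT library. The 100 kb before it held 0 and 1 counts in WT and 12 and 12 in KO libraries, and the 100 kb after it 0 and 0 in WT and 12 and 36 in KO libraries. Gm33707, a predicted gene within the span of the cluster, was picked after its values were seen. It had 0 counts in WT and 28.9 and 25.4 CPM in KO cells, at least 152-fold higher than that floor.

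The second cluster covers the first intron of Cd4 on chromosome 6 (124879694 to 124888079). Repeat loci there had 53 and 60 counts in WT and 1833 and 2142 in KO libraries, 3.37 ± 0.34 and 104 ± 4.57 CPM (SD, n = 2), a 30.9-fold difference. In the 5 kb upstream of Cd4 there were 0 and 0 counts in WT and 161 and 177 in KO libraries, whereas repeats in the other introns had 500 and 423 in WT and 377 and 515 in KO libraries, with overlap. The Cd4 gene itself did not pass the threshold, as given above. As background, regulatory sequence of Cd4 that includes part of the first intron is widely used to drive Cre in T cells; whether the KO cells carry such a transgene is not in the labels, and the source of these reads was not tested. Without both clusters 73 loci passed, 61 higher and 12 lower.

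Among retroviral elements, the lower subfamily was the VL30 element MMVL30-int with RLTR6_Mm, its LTR, with 229345 and 205289 counts in WT and 150844 and 166449 in KO libraries (-0.64, adjusted p = 0.00677). It passed only without WT replicate 2 among the fits that left out a library. Copies on chromosome 11 (86811739 to 86815896, 3994 bases from Dhx40) and chromosome 6 (41197146 to 41202109, 441 bases from Trbv21) carried most of it. The first had 97393 and 86451 counts in WT and 62268 and 65413 in KO libraries (-0.71 ± 0.10, adjusted p = 9.44e-05), and the second 73063 and 68082 in WT and 43234 and 52996 in KO libraries (-0.74 ± 0.09, adjusted p = 2.26e-07). Another copy, on chromosome 19 (4061378 to 4066369), had 45203 and 39051 counts in WT and 34339 and 35886 in KO libraries, with a call lost without WT replicate 1 (adjusted p = 0.359) and by DESeq2 (0.904). All 3 copies were lower in both KO libraries.

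Among the higher subfamilies, MMTV-int with RLTR3_Mm, mouse mammary tumor virus sequence of the germ line, had 72 and 87 counts in WT and 367 and 626 in KO libraries (2.44 ± 0.23, adjusted p = 1.22e-05). Its copy on chromosome 12 (92882540 to 92891112, intergenic) had 52 and 74 counts in WT and 298 and 504 in KO libraries (2.47 ± 0.28), and its copy in Coro2a on chromosome 4 (46575144 to 46585044) had 12 and 11 in WT and 43 and 95 in KO libraries (2.37 ± 0.31). An MMERGLN-int copy on chromosome 17 (34997828 to 34999344, 1643 bases from Vars) had 215 and 289 counts in WT and 892 and 998 in KO libraries (1.72 ± 0.18, adjusted p = 1.13e-09). The MER74C subfamily rested on a copy within Car1, with 6 and 3 counts in WT and 52 and 56 in KO libraries, and lost its call whichever library was left out. In the other direction, an IAPEz-int copy on chromosome 3 (96489248 to 96494539) had 186 and 65 counts in WT and 17 and 4 in KO libraries (-3.73). Its call was lost with the libraries of 0 h alone (adjusted p = 0.224). The gene Adamts13, a protease of von Willebrand factor picked after its values were seen, stood at 2.01 and 1.44 CPM in WT and 0.0551 and 0.0501 CPM in KO cells (-4.87 ± 0.75, adjusted p = 0.00169). An IAPEz-int copy in an exon of Adamts13 (chromosome 2, 26998298 to 27004317), also picked so, had 186 and 69 counts in WT and 4 and 2 in KO libraries (-5.52 ± 0.54, adjusted p = 2.99e-09). Whether the 2 copies share reads was not tested.

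The difference at rest was then set beside the same contrast during stimulation, where the change of the KO effect was tested as an interaction that shares the 0 h libraries. From 0 h to 8 h the KO effect changed for 156 genes (0.995%), 41 upward and 115 downward. From 0 h to 24 h it changed for 4194 genes (26.7%), 1866 upward (11.9%) and 2328 downward (14.8%). The cell cycle lists turned over. The median log2 fold change of G2/M genes was 1.87 at 0 h, 0.63 at 8 h and -3.01 at 24 h, and that of S phase genes 0.42, -0.19 and -2.82, and the effect moved downward from 0 h to 24 h for 65 of 67 and 67 of 67 genes (14.8% of all genes tested). Heat shock genes went from 0.50 to -0.26 and -0.31, with a downward change for 8 of 14 at 24 h. The p53 targets went from 0.30 to 0.76 and 1.40, upward for 23 and downward for 6 of 43 at 24 h. Memory-like and effector genes went from 0.80 to 0.95 and 1.53, upward for 8 and downward for 4 of 43, counts near the shares over all genes tested. Medians of the granulocyte lists at 0, 8 and 24 h were 3.76, 3.74 and 3.94 for neutrophil and granulocyte progenitor genes, 4.26, 3.83 and 6.15 for eosinophil genes, and 3.75, 4.07 and 5.10 for basophil and mast cell genes, with a change of the effect for 0 members of each at 8 h and for 1, 0 and 2 at 24 h. The summed level of the neutrophil and granulocyte progenitor genes at 8 h was 208 and 191 CPM in WT and 298 and 298 CPM in KO cells, a smaller ratio than at 0 h. Interferon-stimulated genes had medians of 0.45, 0.41 and 0.23, with 0 changes at 8 h. At 24 h the change was upward for 6 and downward for 20 of 93, beside 11.9% and 14.8% over all genes tested.

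**Figure D5:**
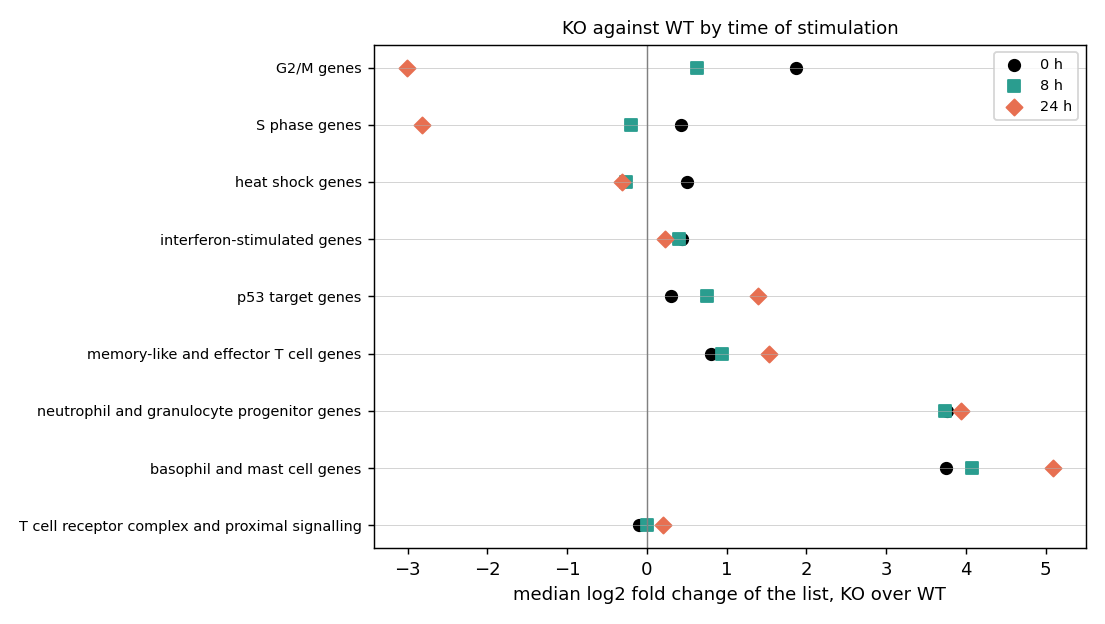
Median log2 fold change of KO over WT (x axis) for 9 gene groups at 0, 8 and 24 h of stimulation. The G2/M and S phase medians cross from 1.87 and 0.42 at 0 h to -3.01 and -2.82 at 24 h, p53 targets move right from 0.30 to 1.40, and the neutrophil list stays between 3.74 and 3.94.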

How the data were processed

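RNA libraries were depleted of ribosomal RNA and read in pairs of 150 bases with a stranded kit, per the labels' protocols. The deposited tables hold raw counts for genes and for repeat loci in 12 library columns, with 0 unused ones. Per the submitters' processing notes, mm10 was the build and fastp 0.12.4 and STAR 2.7.1a were used. The counter and annotation were not given in the sources used here, nor was any use of molecular identifiers. Of 54232 genes, 54165 matched a symbol of the GRCm38 annotation (GENCODE M21), and 15679 passed filterByExpr (minimum count 10, total 15).

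A quasi-likelihood fit (edgeR 4.0.16, R 4.3.3, TMM factors, robust, 1 mean per group) over all 12 libraries had 6 residual degrees of freedom; the spread is thus shared by all 6 groups. Tests were two-sided with Benjamini-Hochberg adjustment over all features tested. Of 3156417 repeat loci, 3009836 are LINE, SINE, LTR or DNA elements, 622209 of them with a count. Library sizes came from the gene table, and repeat coordinates are as deposited.

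The 24 program and 16 other-cell lists and the comparison itself were chosen with earlier results of these data known, and lists are described by counts and medians without a set test. Genes were named by a rule: the 12 genes per direction with the smallest p and the 8 with the largest difference in CPM (mean CPM of at least 5, no overlap, predicted genes skipped), the 4 members with the smallest p in each list, and the first 3 of each other-cell list; some genes the rule admits are not reported here. Clip1, Aldh2, Kntc1, Scarb1, Mki67, Cdkn1a, Trp53, Mdm2, Timeless, Rrm2b, Fosb, Cirbp, Adamts13 and Gm33707 lie outside it and were named after their values were seen. Promoter sequences are RefSeq's on GRCm38.p6. Each result was recomputed with DESeq2 1.42.0, with RLE size factors, without the filter, with 1 CPM in 2 libraries as the filter, with the replicate number as a block, with the libraries of 0 h alone and without each library in turn.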

Additional observations from a re-analysis of the deposited data

Results flagged for a closer look

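Of 115 named genes past the threshold at 0 h, 24 had a KO effect that differed between 0 h and 8 h and 63 one that differed between 0 h and 24 h, by the interaction term of the edgeR fit at an adjusted p under 0.05. Both differences share the 0 h libraries with the contrast that chose the genes. Values are the log2 KO effect at the later time minus that at 0 h.

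From 0 h to 24 h the effect moved furthest downward for cell cycle genes. The replication genes Mcm10, Cdc6, Dtl and Tyms moved by -7.04, -6.77, -6.29 and -4.65, and Mcm5 and Timeless by -3.44 and -1.88. For the mitotic genes Ckap2l, Aurkb, Mki67 and Bub1b the values were -6.27, -6.05, -5.54 and -4.85, and for Ccnf, Foxm1, Ncaph and Ckap2 -4.42, -4.04, -4.03 and -2.94. Chromatin genes Uhrf1, Hells and Daxx moved by -5.74, -4.44 and -0.43, and the kinase Cdk6 by -0.81.

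Among stress genes, the chaperones Hspa8, Hsph1, Dnaja1, Calr and Dnajb1 moved by -1.72, -1.60, -1.04, -1 and -0.93. Of the p53 and BCL-2 genes, Bbc3, Bax and Mcl1 moved upward, by 1.87, 0.82 and 0.56, whereas Psrc1 and Dyrk3 moved by -0.92 and -1.46. Interferon-stimulated Mx2, Phf11b and Usp18 moved by -2.33, -1.69 and -1.13. The amino acid response gene Sesn2 moved by 1.76 and the early gene Ier3 by -2.13.

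Metabolic and RNA binding genes Hk2, Acot7, Hsd17b7, Pdk1, Zfp36l2 and Cirbp moved by -2.95, -1.90, -0.77, -0.91, -1.27 and 0.60. Lymphocyte genes moved both ways: Tnfsf8, Trdc, Crtam, Gpr183, Gpr174, H2-Ob, Tnfrsf18 and Il6st by 1.81, 1.60, 2.04, 1.35, 1.26, 1.04, 0.62 and 0.52, and Il2rb, Igfbp4, Gpr83 and Vipr1 by -0.74, -0.85, -0.78 and -0.62. Genes shared with other blood cells, Kit, Btk, Cd79b, Ncf1 and Coro2a, moved by 1.71, -2.24, -1.49, -1.82 and -1.12. Genes that were lower at 0 h mostly moved upward: Ttc28, Ddr1, Zkscan8, Myo10, Ing5 and Cbx7 by 2.33, 2.05, 1.02, 0.90, 0.56 and 0.49, while Ddx55 itself moved further down, by -0.56.

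At 8 h the cell cycle genes had already moved in part. Mcm10, Dtl, Cdc6, Tyms and Mcm5 moved by -2.56, -2.55, -2.40, -1.54 and -1.20, and Bub1b, Ccnf, Ncaph and Cdk6 by -1.96, -1.76, -1.50 and -1.32. Uhrf1, Hells, Psrc1, Hk2, Acot7, Coro2a and Zfp36l2 moved by -2.18, -1.23, -2.06, -2.81, -1.83, -1.28 and -1.25. The chaperones Hsph1, Hspa8, Dnaja1, Calr and Dnajb1 moved by -1.37, -1.36, -0.93, -0.79 and -0.70. Upward changes at 8 h were those of Crtam, Zkscan8 and Gpr174, of 1.23, 1.08 and 0.77.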

How the results depend on the processing

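Of the 893 genes past the threshold at 0 h, RLE size factors kept 873, DESeq2 799, no filter 857, the CPM filter 851, the libraries of 0 h alone 431 and the fits without a library 320 to 643, and 0 genes passed in the opposite direction under any alternative run. Genes higher in KO cells numbered 726, and 428 with the libraries of 0 h alone; leaving out a library gave 303 to 688. Genes lower numbered 167, and 259 with no filter, 263 with the replicate block and 36 with the libraries of 0 h alone; leaving out a library gave 45 to 391. The 7 changed subfamilies became 2 to 6 when a library was left out, and the 96 changed loci became 62 by DESeq2, 48 with the libraries of 0 h alone and 97 to 281 when a library was left out. Genes with a changed KO effect from 0 h to 8 h numbered 156, 299 by DESeq2, 445 with no filter, 60 with the libraries of 0 h and 8 h alone and 48 to 317 when a library was left out. Fits without a library, or on 0 h alone, have fewer samples. The difference in repeat counts per 1000 gene counts was -8.855, and -15.7 to -2.006 when a library was left out. A replicate block leaves this difference of means the same by construction. Of 115 named genes past the threshold, 72 kept the call in all 4 fits that left out a library, 12 in 3, 9 in 2, 19 in 1 and 3 in 0 (Rbm3, Sesn2 and Dhx40). Cd4 and Mdm2, neither of them called, changed sign: Cd4 from -0.003194 to 0.06199 and Mdm2 from -0.003446 to 0.1355 over the fits that left out a library.

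The labels give both groups replicate numbers 1 and 2. Differences between replicates correlated between WT and KO at 0 h (r = 0.29 across genes), and between times within a genotype (0.13 to 0.39, 6 pairs of groups), but not in all 15 pairs (-0.15 the lowest). The labels do not say what a number marks. With the replicate block 1162 genes passed, 891 of them shared with the 893, and the KO effect differed from that at 0 h for 228 genes at 8 h and for 4594 at 24 h.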

Other observations

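Some gene families that were grouped by their symbols, after earlier results were known, are given here, beside 4.63% higher and 1.07% lower over all genes tested. Killer cell lectin-like receptor genes (Klr symbols) had 9 of 21 tested members higher in KO cells at 0 h and 0 lower, with a median log2 fold change of 2.39 and summed levels of 44.4 and 26.8 CPM in WT and 157 and 82.1 CPM in KO cells. Kinesin genes, motors of spindle and cargo transport, were higher in 6 of 31, and centromere protein genes in 6 of 21. Immunoglobulin heavy chain variable genes were higher in 5 of 45, with summed levels of 81.3 and 6.14 CPM in WT and 129 and 47.5 CPM in KO cells, so that WT replicate 1 overlapped the KO libraries. Zinc finger genes with Zfp symbols had 6 higher and 8 lower of 331, together a share below the 5.7% over all genes. The GIMAP family of lymphocyte survival GTPases gave 0 calls in 9, a number too small to tell apart from those shares.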
